A study of Mus musculus with 6 samples.

Results

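The 10 genes described here encode transcription factors of the skeletal muscle lineage: Pax7, the myogenic factors Myf5, Myod1, Myog and Myf6, the repressor musculin (Msc), and Six4, Meox1, Meox2 and Mef2c. Their members were all probe sets of the array whose annotation gives exactly 1 symbol equal to one of these names, which came to 20 of 45037 tested probe sets and 10 of 18193 named genes. The study measured messenger RNA in 3 Lmx1b -/- pools and 3 wild-type pools of mouse hindlimb bud at E11.5 (embryonic day), both of the 129Sv strain, to find genes that the dorsal patterning factor LMX1B controls. Each pool joined 6 hindlimb buds from 3 embryos, cut to about 500 µm of proximal tissue, and went on 1 array. The labels describe the null genotype only as Lmx1b -/-, and every pool is a mixture of limb mesenchyme, muscle precursors, vessels, nerve and skin.

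Limb muscle comes from precursor cells that leave the somites, the segmented blocks beside the neural tube, and migrate into dorsal and ventral masses of the bud. There MYF5 and MYOD1, basic helix-loop-helix proteins that bind short DNA motifs called E-boxes, commit cells to the muscle fate, MYOG drives their differentiation, and MYF6 acts largely later. Sine oculis-type proteins such as SIX4, and MEF2 proteins, bind the control regions of the same genes, and musculin, a helix-loop-helix repressor, can occupy E-boxes without switching the muscle programme on. LMX1B itself is made in the dorsal mesenchyme that surrounds these cells.

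The Myog promoter is shown because it carries binding letters of several of these factors side by side, and that of Meox2 because both probe sets of this gene separated the groups. RefSeq promoter sequences of build GRCm38.p6 were found for 6 of the 10 genes, in 9 windows. The letters searched were the E-box CANNTG, which reads the same class of motif on either strand, and the motif MEF3, bound by SIX4 and its relatives, TCAGGTT, on both strands. These motifs do not overlap each other in the sequences printed, and capitals mark every match. The 250 bases before each gene's start are given 5′ to 3′, Myog from chr1:134289754-134290003 and Meox2 from chr12:37108290-37108539, both on the plus strand.
Myog: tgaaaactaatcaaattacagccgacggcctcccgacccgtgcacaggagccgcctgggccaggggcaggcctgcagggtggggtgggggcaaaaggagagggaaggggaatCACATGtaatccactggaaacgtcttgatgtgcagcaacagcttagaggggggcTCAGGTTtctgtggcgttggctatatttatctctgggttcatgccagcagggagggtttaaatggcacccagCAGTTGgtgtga
Meox2: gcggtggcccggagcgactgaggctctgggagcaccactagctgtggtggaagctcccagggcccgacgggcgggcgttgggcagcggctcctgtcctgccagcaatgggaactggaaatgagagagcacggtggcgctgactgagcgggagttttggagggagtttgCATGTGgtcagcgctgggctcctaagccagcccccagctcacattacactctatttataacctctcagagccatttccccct

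The Myog window held 2 E-boxes, beginning 138 and 12 bases before the start, and 1 MEF3 motif 84 bases before it. The Meox2 window held 1 E-box, 82 bases before the start, and 0 MEF3 motifs. Of 32851 RefSeq windows of the same length, 66.2% held an E-box and 3.49% held MEF3, so the E-box is common and MEF3 is not. A match describes letters only.

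No member passed the test across the array. With limma and Benjamini-Hochberg adjustment over all 45037 probe sets, 0 of 20 member probe sets had an adjusted p under 0.05, against 0.0844% of all probe sets, and the smallest member value was 0.155, for Msc. At an unadjusted p under 0.05 the members numbered 6 of 20, all of them higher in null pools, against 5.22% of all probe sets higher and 4.2% lower. These 6, the single probe sets of Msc and Meox1, both of Meox2, the brighter of Myod1 and the dimmer of Pax7, were also the 6 in which all 3 null pools lay above all 3 wild-type pools. That ordering was seen in 8.62% of all probe sets, and 0 of 20 members had the opposite one, which 5.78% of all probe sets had. The median change of the 20 was 0.09, against 0.01 over all probe sets, where a change is null minus wild type in log2 units of the RMA value (robust multi-array average). Probe sets of 1 gene are not separate evidence, and the genes follow here by role.

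Msc encodes musculin, also called MyoR, and had the largest change of the 10 genes. Its probe set read 8.35, 8.05 and 8.27 in null pools 1 to 3, against 7.14, 7.72 and 7.45 in wild-type pools 1 to 3. Every null pool was above every wild-type pool. The means were 8.22 ± 0.16 and 7.44 ± 0.29 log2 RMA in null and wild-type pools (SD, n = 3 each). The change of 0.78 corresponds to 1.72-fold (SE 0.15, 95% interval 0.45 to 1.12; limma adjusted p = 0.155), so the interval of this single gene lay above 0 while the value adjusted over the array did not pass. The change was 0.64 without wild-type pool 1, 0.92 without wild-type pool 2 and 0.79 without wild-type pool 3, with limma adjusted p of 0.193, 0.146 and 0.249. The null pools stayed above the wild-type pools in each of these settings.

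Myod1, the myogenic determination gene, was also higher in each null pool, but by a margin that depended on wild-type pool 1. Its brighter probe set read 7.47, 7.32 and 7.57 in null pools, against 6.47, 7.22 and 7.13 in wild-type pools. Wild-type pool 1 lay 0.70 below the mean of wild-type pools 2 and 3 (a difference of -0.70), which was more than the 0.28 by which the null mean exceeded that same mean. The means were 7.45 ± 0.13 and 6.94 ± 0.41 in null and wild-type pools (SD, n = 3 each), a change of 0.51 or 1.43-fold (SE 0.18; limma adjusted p = 0.458). Without wild-type pool 1 the change was 0.28 (95% interval 0.06 to 0.50; limma adjusted p = 0.509), without pool 2 it was 0.65 and without pool 3 it was 0.61. The other Myod1 probe set, 1447675_x_at, lay at the 2.58th percentile of all probe sets by mean level, between 2.21 and 2.47 on every array. Its change was 0.01 (SE 0.09; limma adjusted p = 0.978), and a probe set this dim may not follow the transcript, which was not tested.

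Myf5, the other determination gene, did not separate the groups. Null pools read 6.41, 6.49 and 6.34, against 6.27, 6.50 and 6.41 in wild-type pools. The ranges overlapped almost wholly, and the change was 0.02 (SE 0.08, 95% interval -0.17 to 0.21; limma adjusted p = 0.955). An increase of Myf5 as large as that measured for Myod1 lies outside this interval. Without wild-type pool 1 the change was -0.04, and without pools 2 and 3 it was 0.08 and 0.03.

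Myog, the differentiation gene myogenin, had high and low wild-type pools. It read 7.54, 7.33 and 7.67 in null pools, against 6.60, 7.54 and 7.08 in wild-type pools. Wild-type pool 2 was as high as null pool 1 and above null pool 2, so the groups overlapped. The change was 0.44 (SE 0.21, 95% interval -0.05 to 0.93; limma adjusted p = 0.563). Without wild-type pool 1 it was 0.20, without pool 2 0.67 and without pool 3 0.44, so that 1 wild-type pool moved the value by more than 1.5 times in either direction. Myf6, which encodes MRF4, lay between 2.77 and 3.08 on all 6 arrays, below the lower quartile of 3.33 of all probe sets. Its change was 0.06 (SE 0.09; limma adjusted p = 0.859). Whether a difference was hidden by so low a level was not tested.

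**Figure D1:**
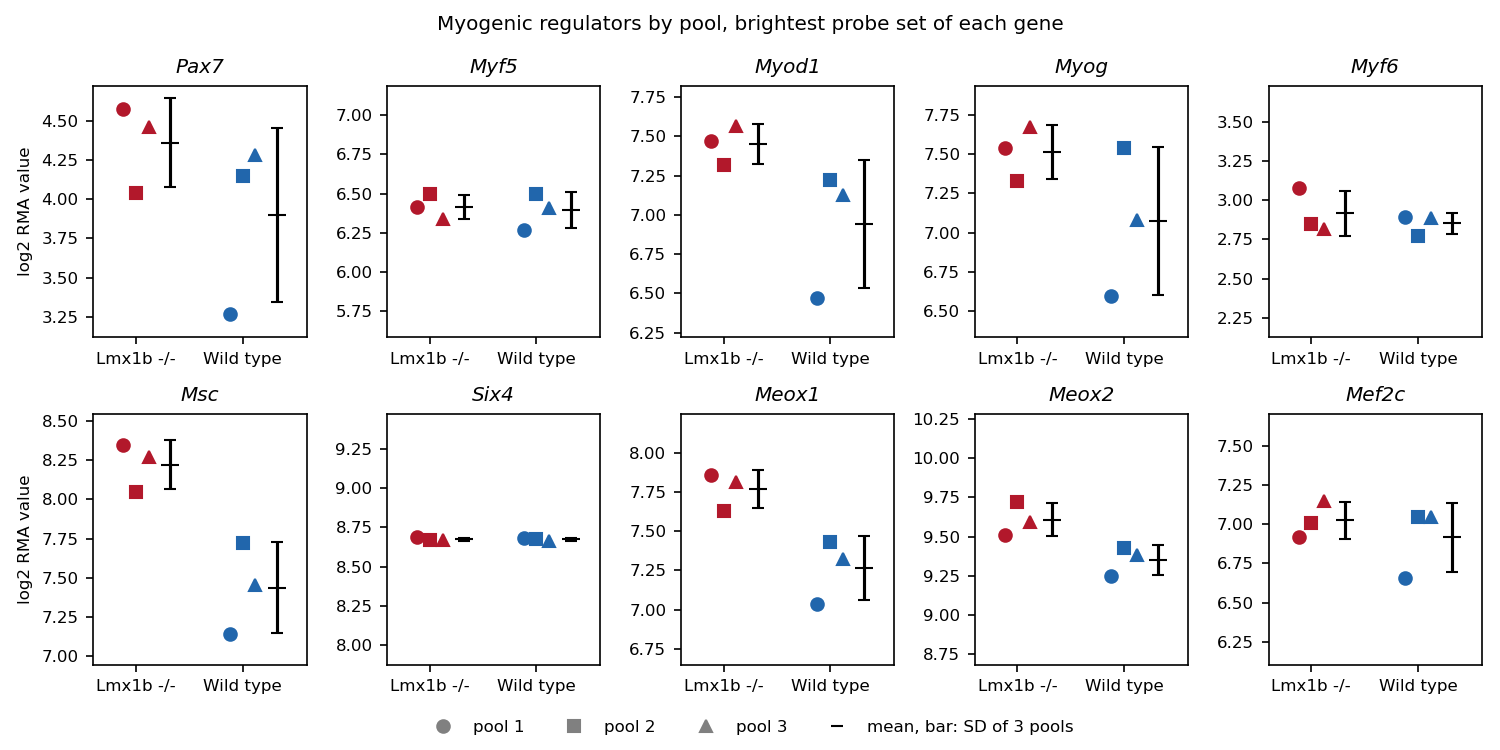
Each panel plots the log2 RMA value (y axis, every panel spanning the same range of units) of the brightest probe set of 1 gene in 3 Lmx1b -/- pools (red, left) and 3 wild-type pools (blue, right), with the mean and SD in black. Msc, Meox1, Meox2 and Myod1 have all red points above all blue points, Myf5 and Six4 lie level, and wild-type pool 1 (blue circle) is the lowest point in 8 of 10 panels.

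Pax7 marks muscle precursor and satellite cells, and was dim at this stage. Its brighter probe set, 1444596_at, read 4.58, 4.04 and 4.46 in null pools, against 3.26, 4.15 and 4.28 in wild-type pools. The groups overlapped, and wild-type pool 1 alone stood apart, 0.95 under the mean of the other wild-type pools (a difference of -0.95). The change of 0.46 (SE 0.26; limma adjusted p = 0.614) was 0.14 without wild-type pool 1, 0.58 without pool 2 and 0.65 without pool 3. The other Pax7 probe set, 1452510_at, read 3.74, 3.88 and 4.33 in null pools, against 3.34, 3.60 and 3.44 in wild-type pools. Here the groups did not overlap, and the change of 0.52 (SE 0.15; limma adjusted p = 0.362) was 0.46, 0.59 and 0.51 without wild-type pools 1, 2 and 3. Both probe sets lay under the median level of the array (the 38.7th and 32.3rd percentiles), where RMA values carry little signal over background and folds are compressed.

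Meox1 and Meox2, homeobox genes of somites and of limb muscle precursors, were higher in every null pool than in any wild-type pool, without passing the test. Meox1 read 7.86, 7.63 and 7.81 in null pools, against 7.04, 7.43 and 7.32 in wild-type pools. Wild-type pool 1 was again the lowest. The means were 7.77 ± 0.12 and 7.26 ± 0.20 in null and wild-type pools (SD, n = 3 each), a change of 0.50 or 1.42-fold (SE 0.11, 95% interval 0.24 to 0.76; limma adjusted p = 0.231). It was 0.39, 0.59 and 0.53 without wild-type pools 1, 2 and 3.

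Meox2 was read by a pair of bright probe sets with like values. The brighter, 1424234_s_at, read 9.51, 9.72 and 9.59 in null pools, against 9.25, 9.43 and 9.38 in wild-type pools. The dimmer, 1424233_at, read 8.49, 8.80 and 8.65 in null pools, against 8.29, 8.34 and 8.48 in wild-type pools. Null pool 2 was the highest of 6 in both, and the groups met without overlapping. The changes were 0.25 (SE 0.08; limma adjusted p = 0.418) and 0.28 (SE 0.10; limma adjusted p = 0.442), or 1.19-fold and 1.21-fold. They came to 0.20 and 0.24 when wild-type pool 1 was left out, 0.29 and 0.26 in the absence of pool 2, and 0.27 and 0.34 in that of pool 3. A probe set ending in _s_at can read transcripts of more than 1 gene, per the array maker's naming, and one ending in _x_at can cross-hybridise.

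Six4, a sine oculis-type homeobox gene that acts with its paralogs upstream of Myog, did not separate the groups. Its brightest probe set, 1425767_a_at, read 8.69, 8.67 and 8.67 in null pools, against 8.68, 8.68 and 8.66 in wild-type pools. The change was 0.00 (SE 0.06, 95% interval -0.13 to 0.14; limma adjusted p = 0.991), the narrowest interval among the 20. The 2 other bright probe sets, 1456862_at and 1439753_x_at, lay between 7.93 and 8.28 on all arrays, and null pool 2 was the highest in both. The fourth, 1427701_a_at, was dim and had a change of -0.12 (limma adjusted p = 0.772), which was 0.00 without wild-type pool 1.

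Mef2c encodes a MADS-box partner of the myogenic factors and is also active in vessels, nerve and cartilage. Its 5 probe sets had changes of 0.11, -0.05, 0.15, -0.23 and 0.02 from the brightest to the dimmest, and limma adjusted p from 0.625 to 0.973. The brightest, 1421027_a_at, read 6.92, 7.01 and 7.15 in null pools, against 6.66, 7.04 and 7.04 in wild-type pools. In all 5, wild-type pool 1 was the lowest array, between 0.32 and 0.52 below the mean of wild-type pools 2 and 3 (differences of -0.32 to -0.52). The probe set 1421028_a_at read 5.41, 5.45 and 5.54 in null pools, against 5.37, 5.89 and 5.84 in wild-type pools. With wild-type pool 1 left out, its null pools all lay below the wild-type pools, at a change of -0.40 (SE 0.08; limma adjusted p = 0.207), and those of 1424852_at did too, at -0.22 (limma adjusted p = 0.592). The remaining 3 were at -0.02, -0.03 and -0.08 in that setting, so all 5 Mef2c probe sets were below 0 there. Msc and the brighter Myod1 probe set were above 0 in it. Leaving out another wild-type pool did not give this. From the brightest to the dimmest, the changes were 0.17, 0.03, 0.25, -0.14 and 0.13 without wild-type pool 2. Without wild-type pool 3 they were 0.17, 0.05, 0.22, -0.16 and 0.02.

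**Figure D2:**
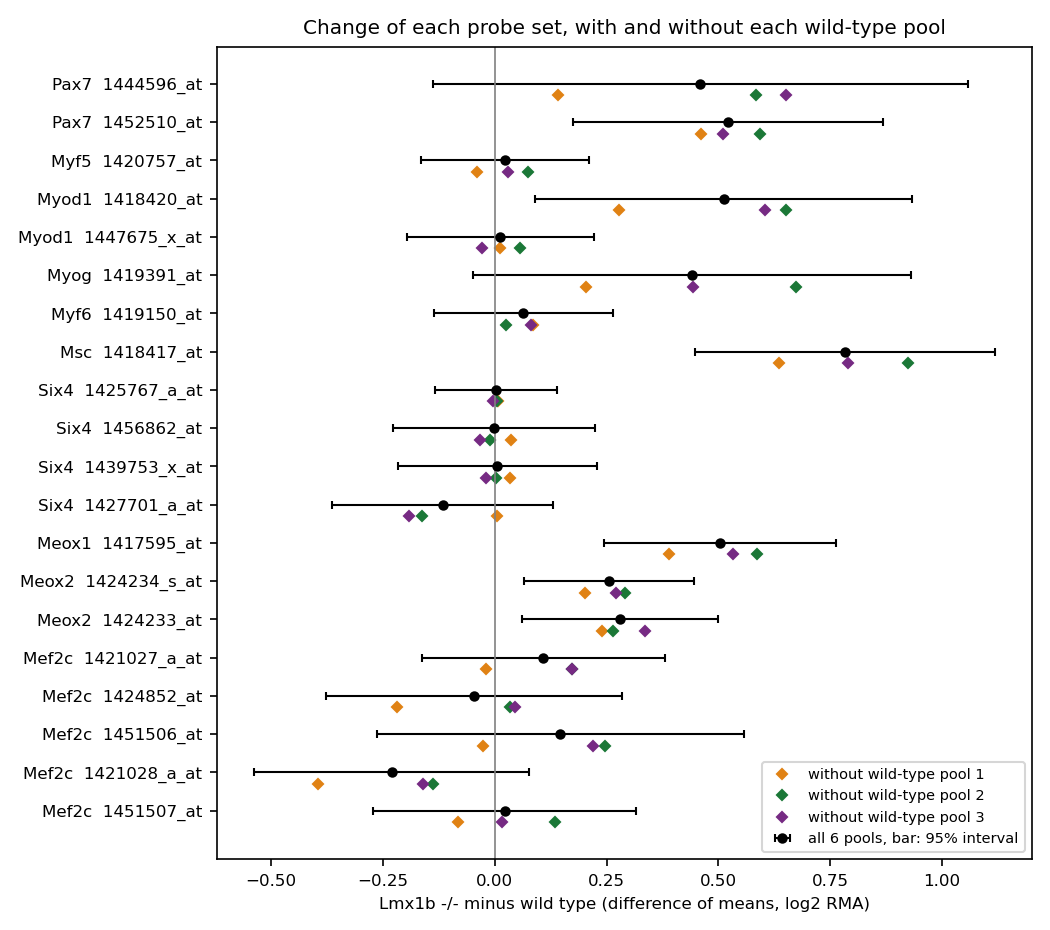
The plot gives, for each of the 20 probe sets (rows), the difference of means between Lmx1b -/- and wild-type pools in log2 units (x axis), with the 95% interval of the limma fit on all 6 pools in black and the value without each wild-type pool as coloured diamonds. The orange diamonds, without wild-type pool 1, lie left of the black points for Msc (0.64 against 0.78), Myod1 (0.28 against 0.51) and all 5 Mef2c probe sets.

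Wild-type pool 1 was the lowest of the 6 arrays in 14 of 20 member probe sets, against 22.8% of all probe sets. With it left out, 6 members had all null pools above all wild-type pools, against 13.4% of all probe sets in that setting. The other direction then held 2 members, both of Mef2c, against 10.5% of all probe sets. By unadjusted p under 0.05, 4 members were higher and 2 lower without wild-type pool 1 (8.22% of all probe sets in either direction). The counts were 6 higher and 0 lower with wild-type pool 2 left out (7.31%), and 7 higher and 0 lower with wild-type pool 3 left out (11.2%). Without wild-type pool 2, 7 members had all null pools above all wild-type pools (13.8% of all probe sets), and without wild-type pool 3, 6 did (16%). In each of the 3 settings 0 members passed the adjusted threshold, where 0.0844%, 0.0333% and 0.0466% of all probe sets did.

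**Figure D3:**
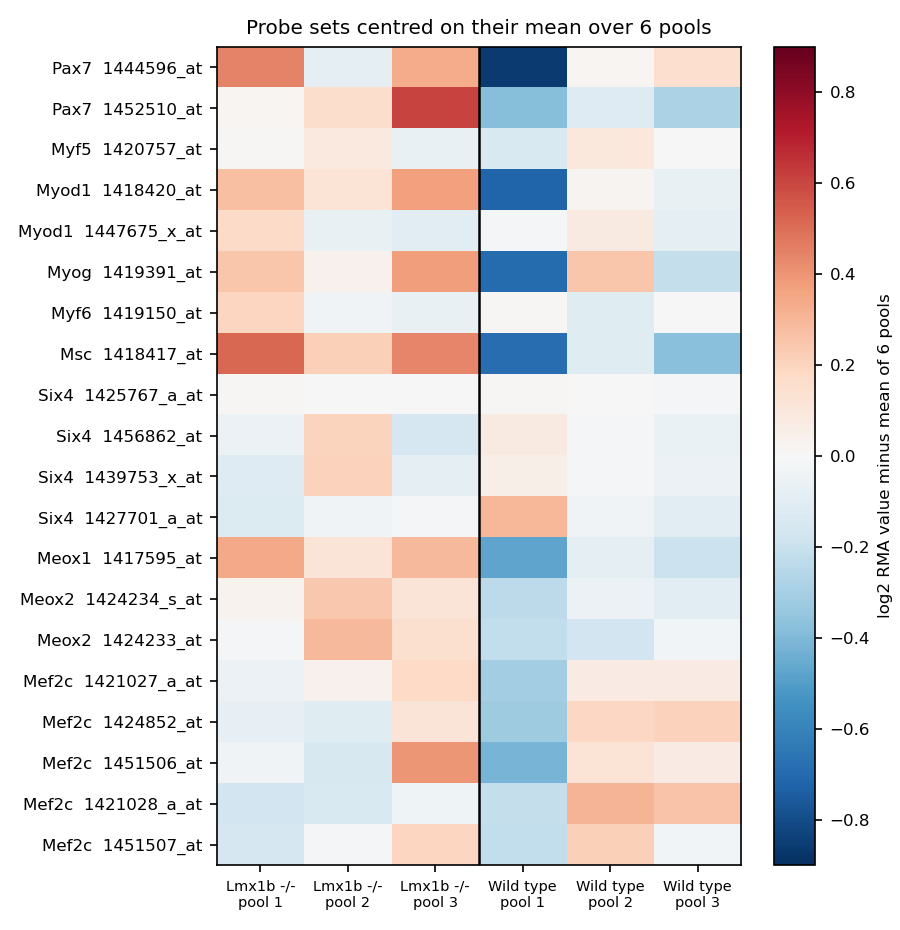
Rows are the 20 probe sets and columns the 6 pools, Lmx1b -/- left and wild type right, and colour is the log2 RMA value minus the probe set's mean over the pools, red above and blue below. The column of wild-type pool 1 is blue in most rows, while the 4 Six4 rows are pale or run the other way.

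Because RMA values of different probe sets are not on 1 level scale, genes were set against each other only as differences within a pool, which show unequal change. Msc minus Myod1 was 0.88, 0.73 and 0.70 in null pools, against 0.67, 0.50 and 0.32 in wild-type pools, so Msc was higher relative to Myod1 in every null pool. The shift was 0.27 (exact permutation p = 0.1, two-sided, the smallest that 3 against 3 pools can give; 0.12 after adjustment over 6 such pairs). Msc set against any other named gene separated the groups in this way in 96.2% of cases, so the ordering is nearly fixed by Msc itself. Myog minus Myod1 was 0.07, 0.01 and 0.10 in null pools, against 0.13, 0.32 and -0.05 in wild-type pools, and overlapped (exact permutation p = 0.7, two-sided). The pairs were chosen after the values were seen.

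Other genes of the muscle programme did not pass the test either. Of 33 further regulators analysed here out of 36 listed, among them cofactors, inhibitors and upstream factors, 0 passed (limma, 1 probe set per gene), against 0.0934% of all genes. The changes were above 0 in 19 and below in 14, against 57% above over all genes. The counts were 16 and 17 with array medians aligned, and 22 and 11 with quantile normalization repeated. The median change was 0.02, as over all genes. At an unadjusted p under 0.05, 4 were higher and 1 lower, against 5.34% and 3.58% of all genes. The 4 with the smallest p were all higher, and the 1 lower gene, Eya4, came next. It read 7.22, 7.27 and 7.49 in null pools, against 7.59, 7.58 and 7.49 in wild-type pools (change -0.23, limma adjusted p = 0.475). Vgll2, a TEAD cofactor gene of somites and muscle, read 7.07, 6.95 and 7.05 in null pools, against 5.95, 6.71 and 6.51 in wild-type pools (change 0.64, or 0.42 without wild-type pool 1; limma adjusted p = 0.328 on all pools). Lbx1, the homeobox gene of migrating limb muscle precursors, read 6.94, 6.82 and 6.69 in null pools, against 6.50, 6.35 and 6.63 in wild-type pools (change 0.32, limma adjusted p = 0.371). All null pools were above all wild-type pools for both genes. Sim2, a bHLH-PAS gene, had a change of 0.41, or 0.27 without wild-type pool 1, and Cdkn1a, the cell cycle inhibitor p21, one of 0.21 (limma adjusted p = 0.43 and 0.442).

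Among 35 genes of differentiating muscle, contractile and receptor genes in the main, 0 passed, and 29 lay above and 6 below wild type (28 and 7 with array medians aligned), against 57% above over all genes. Their median change was 0.15, and 3 were higher and 0 lower at an unadjusted p under 0.05, again against 5.34% and 3.58% of all genes. Cdh15, the muscle cadherin gene, had the smallest p, with 6.33, 6.33 and 6.28 in null pools, against 5.88, 5.88 and 6.16 in wild-type pools (change 0.35, limma adjusted p = 0.3). The acetylcholine receptor genes Chrna1 and Chrng had changes of 0.29 and 0.14, and Mymk, the myoblast fusion gene myomaker, one of 0.33, with limma adjusted p from 0.479 to 0.545. The mean of the centred values over this list was 0.07, -0.02 and 0.19 in null pools, against -0.35, 0.18 and -0.07 in wild-type pools. The groups overlapped, since wild-type pool 2 was nearly the highest and wild-type pool 1 the lowest. The mean shift was 0.16, and 0.03 without wild-type pool 1.

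The same mean over the 10 regulators was 0.20, 0.07 and 0.20 in null pools, against -0.41, 0.01 and -0.07 in wild-type pools. It thus separated the groups, by a shift of 0.31, or 0.19 without wild-type pool 1. Because the genes were chosen with earlier results of these data known, this separation is a description and not a test. The endothelial list described below separated the groups too, in the other direction. In such mixed tissue, more cells of a type and more RNA per cell cannot be told apart.

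**Figure D4:**
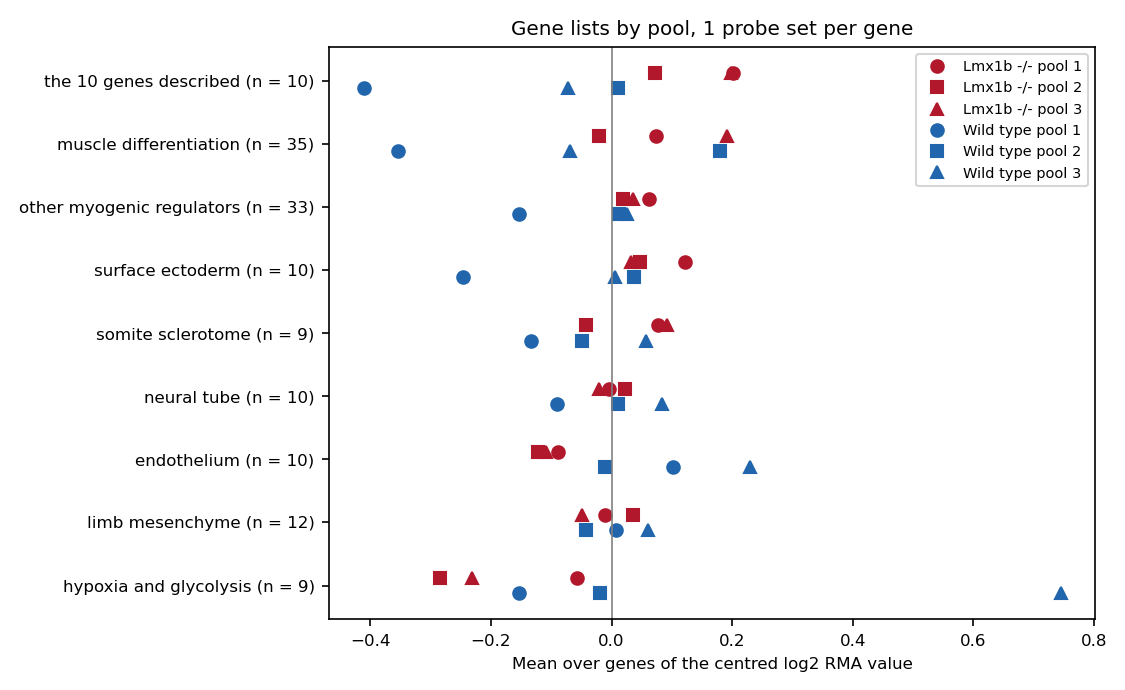
For each gene list (rows, with the number of genes), the plot gives the mean over genes of the log2 RMA value centred on the mean of 6 pools (x axis), Lmx1b -/- pools in red just above and wild-type pools in blue just below. Wild-type pool 1 is the lowest for the 10 genes (-0.41), muscle differentiation (-0.35) and other myogenic regulators (-0.15), and also for surface ectoderm (-0.25), somite and sclerotome (-0.13) and neural tube (-0.09), while limb mesenchyme is level and wild-type pool 3 is highest for hypoxia and glycolysis (0.74).

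Markers of other tissues that a dissected bud can hold were read in the same way. The 12 limb mesenchyme genes lay between -0.05 and 0.03 in null pools and -0.04 and 0.06 in wild-type pools. Of these genes, 7 were above wild type and 5 below (5 and 7 with array medians aligned). All null pools lay above all wild-type pools in 1 of them and below in 2. Prrx1, a defining gene of limb mesenchyme, was bright on every array and lower in every null pool. It lay between 11.05 and 11.08 in null pools and 11.16 and 11.22 in wild-type pools. Twist1, of the same list, went the other way, between 10.28 and 10.32 in null pools and 10.11 and 10.22 in wild-type pools. Neither gene stands for the list, whose pool means overlapped. The 9 somite and sclerotome genes lay between -0.04 and 0.09 in null pools and -0.13 and 0.06 in wild-type pools, and 5 of 9 were above wild type (4 with array medians aligned). Single genes of this list differed more than its mean. Pax9, chosen from it after its values were seen, read 6.96, 7.32 and 6.95 in null pools, against 5.68, 6.46 and 6.01 in wild-type pools. Its change of 1.02 was larger than that of Msc and likewise did not pass (limma adjusted p = 0.155). The lowest change of the list was -0.40, for Tbx18. Whether Pax9 and Tbx18 were read from somite cells or from cells of the bud itself was not tested. Of the 10 neural tube genes, 5 were below the lower quartile of the array, and the list lay between -0.02 and 0.02 in null pools and -0.09 and 0.08 in wild-type pools. The 10 surface ectoderm genes lay between 0.03 and 0.12 in null pools and -0.25 and 0.04 in wild-type pools, and 9 of 10 were above wild type. The 10 endothelial genes were all below wild type (9 with quantile normalization repeated), between -0.12 and -0.09 in null pools and -0.01 and 0.23 in wild-type pools. The 9 hypoxia and glycolysis genes were all below wild type too, between -0.28 and -0.06 in null pools and -0.15 and 0.74 in wild-type pools, the last in wild-type pool 3. The 7 erythroid genes lay between -0.10 and 0.15 in null pools and -0.07 and 0.03 in wild-type pools, and the 8 macrophage genes between 0.01 and 0.03 in null pools and -0.08 and 0.09 in wild-type pools. Summed on the linear scale, the ectoderm list reached a log2 level of 10.24 to 10.33 in null pools and 9.95 to 10.25 in wild-type pools, with no defining gene at 0, since RMA gives no zeros. The part of any of these tissues in the muscle values was not tested.

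The pools also differed in a marker of female tissue. Xist, the RNA of the inactive X chromosome, read 9.66, 9.16 and 10.79 in null pools, against 4.68, 9.88 and 4.72 in wild-type pools. With its level in the fit, an alternative chosen after seeing the data, the changes were 0.50 for Msc, 0.33 for Meox1, 0.22 for Myod1 and -0.04 for Myog, with limma adjusted p of 0.715, 0.812, 0.95 and 0.995. Xist is high in every null pool and in 1 wild-type pool, so this marker and genotype can be told apart only in part. Eif2s3y, a gene of the Y chromosome, read 5.86, 6.37 and 2.65 in null pools, against 7.12, 6.00 and 6.90 in wild-type pools. Null pools 1 and 2 and wild-type pool 2 thus had both signals, and null pool 3 had Xist without Eif2s3y. Wild-type pools 1 and 3 had Eif2s3y with low Xist. Lmx1b itself checks the labels: its brighter probe set read 4.62, 4.23 and 4.57 in null pools, against 8.02, 7.58 and 8.17 in wild-type pools. The dimmer Lmx1b probe set, 1421769_at, did not separate the groups (change -0.01, SE 0.08; limma adjusted p = 0.986).

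The genes whose pattern over the 6 pools came nearest to that of Msc and of Myod1 were found by the root mean square difference between values centred on each gene's own mean, over 10987 genes at or above the median level. Nearest to Msc were Ebf2 (0.0944), Igfbp5 (0.097), Vgll2 (0.117), Bnc1 (0.118) and Rtl3 (0.131), all in log2 units. Ebf2, a transcription factor gene, read 7.51, 7.36 and 7.56 in null pools, against 6.43, 6.76 and 6.65 in wild-type pools, and rose past the threshold (change 0.86, limma adjusted p = 0.0382), as Msc did not. Among the 10 genes, the nearest to Msc was Meox1 (0.153), then Myod1 (0.177) and Myog (0.21).

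Nearest to Myod1 were Krt15 (0.0472), Sostdc1 (0.0627), Pisd-ps3 (0.0678), Nsg2 (0.0801) and Fst (0.0812). Krt15, a keratin gene of the skin, read 6.46, 6.29 and 6.46 in null pools, against 5.49, 6.19 and 6.02 in wild-type pools. Like Myod1, it was high in all null pools and lowest in wild-type pool 1. Such a shared ordering follows from the choice by nearness, for Krt15 and Myod1 as for Ebf2 and Msc, and is no further likeness. Fst encodes follistatin, which binds activins and myostatin. The nearest of the 10 genes were Myog (0.115), Meox1 (0.127) and Pax7 (0.156), whereas Myf5 (0.322), Six4 (0.356) and Myf6 (0.361) were farthest. The measure is not scaled for the size of change, so genes that hardly vary over the pools lie far from Myod1 by that alone. Nearness over 6 arrays is a description of these pools only.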

How the data were processed

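The authors deposited a table with 1 RMA value for each probe set on each array, taken here as log2 because the values ran from about 1.77 to 13.72. RMA is named in the submitters' processing notes, without a version in the sources used here. Because RMA forces near-equal distributions on the arrays, a change common to most transcripts is not visible. The RNA was extracted with Trizol, per the labels' protocols. Of 45101 probe sets, 64 controls were left out. The platform annotation gave 1 symbol to 34945 of the rest and several to 932, and 9160 were unnamed here. A RefSeq table (GRCm38.p6) held the identifiers of 34741 and left every symbol as it was.

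Genotypes were set against each other in R 4.3.3 with limma 3.58.1 (lmFit, then eBayes without trend or robust option). Tests were two-sided. The Benjamini-Hochberg adjustment ran over the 45037 tested probe sets, and 0.05 was the threshold. Pools of separate embryos served as replicates, 3 a group, and their number limits the precision. Where 1 value per gene was needed, the brightest probe set was used, with the p adjusted over all probe sets. The scripts were tested on simulated data. The named genes were the 10 members with every probe set, up to 4 genes with the smallest p from each muscle list, the 5 nearest in pattern to Myod1 and to Msc, and Lmx1b. Prrx1, Twist1, Pax9, Tbx18 and Eya4 were named from the lists outside this rule. The members and lists were chosen with earlier results of these data known. Alternatives were other scalings, each pool left out, a pool block, brightness and gene filters, and other variance models. Deviations from the group mean correlated at -0.239, -0.088 and -0.168 between pools 1, 2 and 3 of either genotype, so the numbers do not pair them.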

Additional observations from a re-analysis of the deposited data

How the results depend on the processing

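Of the 20 member probe sets, 0 passed the threshold under any of the alternatives, as did 0 other myogenic regulators and 0 muscle differentiation genes. The count over all probe sets was 38, but 14 with the replicate block, 20 among bright probe sets, 94 with an intensity trend, 69 with array weights, 19 with 1 probe set per gene, 9 with Xist in the fit (chosen after seeing the data), and 13 to 38 with 1 pool left out. The causes of these differences were not tested. Filters and omissions also leave fewer features or pools. The median change of the members ranged from 0.04 to 0.15 with 1 pool left out. Direction was kept under every alternative run by 8 of 20 member probe sets: those of Msc (0.50 to 0.92), Meox1 (0.33 to 0.59), Meox2 (both), Pax7 (both), the brighter of Myod1 (0.22 to 0.65) and Mef2c 1421028_a_at (-0.42 to -0.14). The replicate block, the brightness and gene filters, the intensity trend and the robust option leave the change itself as it was. Direction could therefore turn only under the other alternatives. The dimness of Myf6, Pax7 and 1 probe set each of Myod1 and Six4 limits what their values can show.

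The other 12 turned sign in at least 1 alternative, Myog only with Xist in the fit. With array medians aligned, values turned to -0.0037 for Myod1 1447675_x_at, -0.014 for Six4 1425767_a_at and -0.011 for Six4 1439753_x_at. With quantile normalization repeated, Myod1 1447675_x_at was at -0.0036 and Six4 1456862_at at 0.027. With array weights, Myf5 was at -0.0083, Six4 1456862_at at 0.0065 and Mef2c 1451507_at at -0.063. With Xist in the fit, Myf5 was at -0.054, Myod1 1447675_x_at at -0.053, Myog at -0.041, Six4 1456862_at at 0.061, and Mef2c 1421027_a_at, 1451506_at and 1451507_at at -0.039, -0.124 and -0.222. With 1 pool left out, Myf5 ranged from -0.039 to 0.075, Myod1 1447675_x_at from -0.072 to 0.062 and Myf6 from -0.018 to 0.113. Six4 ranged from -0.0034 to 0.0070 in 1425767_a_at, from -0.102 to 0.071 in 1456862_at, from -0.098 to 0.066 in 1439753_x_at and from -0.192 to 0.0045 in 1427701_a_at. Mef2c ranged from -0.020 to 0.173 in 1421027_a_at, from -0.219 to 0.045 in 1424852_at, from -0.026 to 0.254 in 1451506_at and from -0.083 to 0.134 in 1451507_at.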
